A study of Mus musculus with 5 samples.

Results

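Programmed cell death genes were examined in the luminal layer of the mouse uterus, the sheet of epithelium that the blastocyst attaches to. The set held 38 genes of the 23420 in the count table, chosen by name as the Bcl2 family, the caspases and their direct regulators, and each of the 38 names was found. By role, 8 were survival genes, 3 formed pores in the mitochondrial membrane, 9 were death-promoting BH3-only genes or Bcl2l14, 4 belonged to the apoptosome and its triggers, 6 to death receptor signalling, 6 to necroptosis and inflammatory death, and 2 were other caspases. Levels are in CPM, counts per 1000000 of a library, and 37 of the 38 genes averaged 1 CPM or more and were compared. The remaining gene, Hrk, a BH3-only gene best known from neurons, had 2 counts on day 5 away from the embryo and 0 in the other 4 libraries, which is under the floor of 3 counts.

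In the mitochondrial pathway of apoptosis, guard proteins such as Bcl2, Bcl2l1 (Bcl-xL) and Mcl1 hold the pore formers Bax and Bak1 in check, and BH3-only proteins neutralise the guards or trigger the pore formers. Released cytochrome c then assembles the Apaf1-Casp9 apoptosome. Death receptors act through Fadd and Casp8, which Cflar restrains, and where Casp8 is not active Ripk3 and Mlkl can carry out necroptosis, a lytic form of death. In the mouse uterus, the luminal epithelium next to the attached blastocyst is later removed, which brings the embryo into contact with the stroma.

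The 5 libraries came from wild-type C57BL/6N females, for which the labels name no drug or altered gene, and day 1 was the day of the vaginal plug. One library each represented day 3 morning, day 4 morning and day 4 evening, before attachment. On day 5 morning, after intravenous dye had marked the implantation sites, the layer surrounding the attached embryo (labelled AM pole) and the layer away from it (labelled M pole) were each sampled once. In the study AM stands for the anti-mesometrial and M for the mesometrial pole of the uterus. Nearness to the embryo and pole therefore cannot be told apart in any difference between around and away. Tissue was cut from sections by laser microdissection. The number of mice behind a library and their age were not given in the sources used here (the study's methods describe pooled RNA for its Lif groups), and since there was 1 library per condition, no difference below has a replicate check.

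Total counts ranged from 15334674 to 19529491 per library and genes counted from 15274 to 15888, and the cell death genes together held between 27386 counts on day 4 evening and 57847 around the embryo. Differences are given as log2 CPM after TMM scaling, with an exact 95% interval (Clopper-Pearson, on the 2 counts compared) that covers counting error only, and a gene is called higher or lower where it lay past 2-fold. The 10 epithelial markers were detected in all 5 libraries, with summed levels of 4646, 4141, 3979 and 3676 CPM in the first 4 libraries in order of day, day 5 away last, and 7417 CPM around the embryo. Of 14 embryo markers, 6 or 7 were at 0 in each of the other 4 libraries and none was at 0 around the embryo. Cdx2, Pou5f1, Gata4 and Tfap2a, at 0 in the other 4 libraries, had 22, 68, 54 and 137 counts there. Of the 9 embryo markers that averaged 1 CPM or more, 8 were higher around than away and 0 lower. Among these, Plac1 had 1 count away and 659 around, and Eomes 26 and 609. Sox17, also among the 8, was abundant in all 5 libraries, with 26978, 38230, 28768, 14211 and 39217 counts in order of day. Krt8, which was not among the 8, also counted among the 10 epithelial markers. The part of embryonic RNA in the differences below was not tested. In the same library, the summed immune markers stood at 163 CPM against 317 to 432 CPM in the others, with 8 of 11 lower than away from the embryo and 3 higher (S100a8 with 6 counts away and 955 around, Cd68 with 220 and 670, S100a9 with 3 and 35). The stromal markers stood at 423 CPM against 576 to 667 CPM, with 4 of 10 lower than away and 1 higher. That 1 was Hand2, at 20.9 CPM away and 132 CPM around. The smooth muscle markers stood at 395 CPM against 10.9 to 31.8 CPM, most of it Des with 6090 counts. All 5 smooth muscle markers that averaged 1 CPM or more were higher around than away. Endothelial markers summed to 12.3 to 99.8 CPM and gland markers to 2.02 to 13.6 CPM over the 5 libraries, both highest around the embryo, where Cdh5 alone gave 71.4 CPM of the endothelial sum and 2 of 6 endothelial markers were higher and 2 lower than away. All 4 gland markers that averaged 1 CPM or more were higher around than away, with at most 81 counts in any library. The part of the immune, stromal, smooth muscle, endothelial and gland markers in the results was not tested either. In a bulk sample, fewer cells of a type and less RNA per cell cannot be told apart.

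Around the embryo, Pmaip1 and Ripk3 stood far above every other library. Pmaip1 was 12.8-fold and Ripk3 7.91-fold higher there than away from the embryo on the same morning, and the survival gene Bcl2 was 4.78-fold lower. In all, 6 of the 37 genes (16.2%) were higher around than away, against 13.3% of all 12918 genes, and 6 (16.2%) were lower, against 15.0% of all genes. The share of cell death genes past 2-fold was therefore near that of the whole table, and their median difference was 0.16 against -0.05 for all genes. Scaling by library totals, which lowered the median of all genes to -0.36, left 6 higher, gave 9 lower (21.7% of all genes) and turned the median of the cell death genes to -0.15. The higher genes were Pmaip1, Ripk3, Bcl2l2, Bcl2l11, Casp8 and Cflar, and the lower genes were Bcl2, Casp12, Casp1, Birc2, Casp4 and Bid, so each direction held genes that promote and genes that restrain death.

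**Figure D1:**
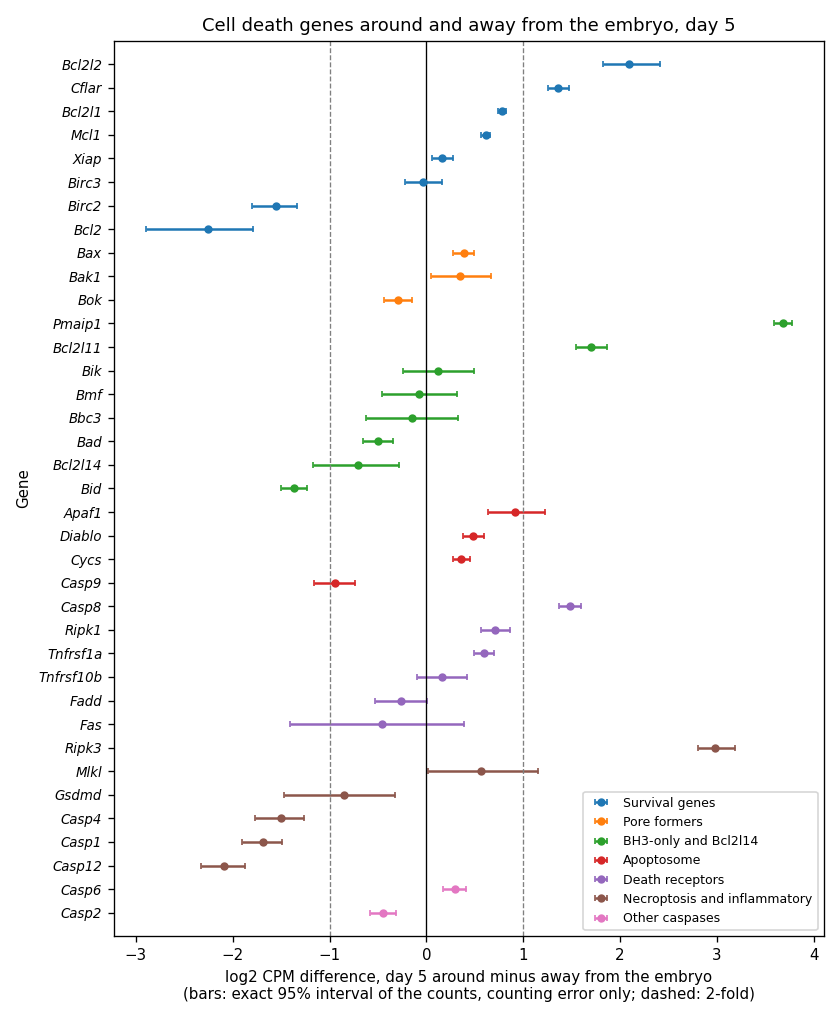
Log2 CPM difference of the 37 cell death genes between the day 5 layer around the embryo and the layer away from it, grouped by role, with bars for the exact 95% interval of the counts (counting error only, 1 library per condition) and dashed lines at 2-fold. Pmaip1 at 3.68 and Ripk3 at 2.98 lie farthest to the right, and Bcl2 at -2.26 and Casp12 at -2.09 farthest to the left.

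Among the BH3-only genes, Pmaip1 (Noxa), whose protein binds Mcl1, gave the widest difference. It had 2042 counts on day 3, then 893 in the morning and 1058 in the evening of day 4, and 1123 away from and 13310 around the embryo on day 5. The log2 difference was 3.68 (95% interval 3.59 to 3.77) around versus away and 3.96 (3.86 to 4.06) around versus day 4 morning, whereas away versus day 4 morning it was 0.28 and within 2-fold. The day 4 morning level was itself below day 3, by a log2 difference of -1.24. Bcl2l11 (Bim), which binds all the guards, had 610, 211, 267, 408 and 1227 counts in the same order of libraries. It was higher around the embryo both than away, at 1.70 (1.54 to 1.87), and than on day 4 morning, at 2.59 (2.39 to 2.82), and like Pmaip1 it was lower on day 4 morning than on day 3, at -1.57 (-1.81 to -1.35).

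Bid, which Casp8 cleaves to link death receptors to mitochondria, showed the other order on day 5. Its counts of 524, 331, 450, 1652 and 591 peaked away from the embryo, with a log2 difference of 2.26 (2.09 to 2.44) between away and day 4 morning and of -1.36 (-1.51 to -1.23) between around and away.

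Other BH3-only genes were lower in both day 5 libraries than on day 4 morning. Bbc3 (Puma), a p53-responsive activator, had 277, 805, 82, 84 and 70 counts. The drop from day 4 morning was already present by the evening, at -3.08 (-3.46 to -2.78), and measured -3.28 away and -3.43 around, while the day 5 libraries differed by only -0.14. Bik, a BH3-only protein of the endoplasmic reticulum, followed with 156, 404, 213, 125 and 126 counts, 1.31 above day 3 on day 4 morning and then -1.73 and -1.61 away and around. Bmf, tied to the cytoskeleton and loss of attachment, had 297, 253, 53, 122 and 107 counts and was lowest on day 4 evening, at -2.04 (-2.53 to -1.64) from that morning. Its day 5 values were -1.09 away and -1.17 around. Bcl2l14 (Bcl-G), a family member of less settled function, had 354, 505, 255, 123 and 69 counts, with -2.07 away and -2.78 around. For both day 5 libraries these 4 genes were lower than on day 4 morning, and between around and away none of them passed 2-fold. Bad, which growth factor signals switch off by phosphorylation, had 1112, 1386, 1322, 907 and 593 counts and passed 2-fold only around versus day 4 morning, at -1.16 (-1.31 to -1.02). Exons of Bad share 517 bases (35.6% of its length) with Gpr137 on the opposite strand, and since the strand setting of the counting was not given, its reads cannot be told apart there.

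**Figure D2:**
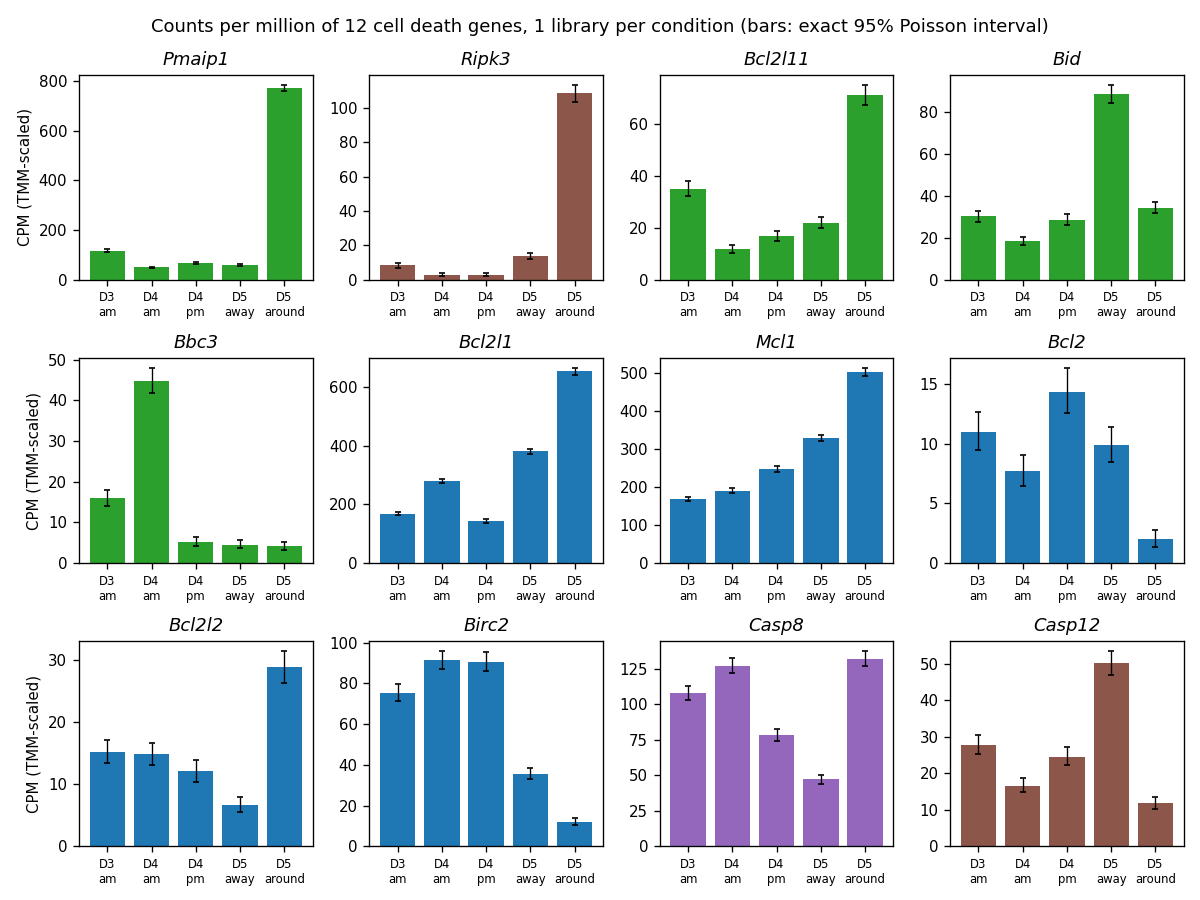
CPM of 12 cell death genes in the 5 libraries (D3 to D5 are days 3 to 5, am and pm are morning and evening), with 1 library per bar and bars for the exact 95% Poisson interval. Pmaip1, Ripk3, Bcl2l11, Bcl2l1, Mcl1 and Bcl2l2 are tallest around the embryo, Bid and Casp12 away from it, and Bbc3 on day 4 morning.

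The survival genes split. Bcl2l1 (Bcl-xL) had 2924, 5027, 2264, 7111 and 11273 counts, and Mcl1, a short-lived guard, had 2920, 3408, 3890, 6124 and 8642. Both were highest around the embryo, at 1.23 (1.18 to 1.27) and 1.40 (1.35 to 1.46) above day 4 morning, and the differences of 0.78 and 0.61 from the layer away from the embryo were within 2-fold. Bcl2l2 (Bcl-w) had 264, 266, 191, 124 and 496 counts. Of the 5 libraries, the one away from the embryo was lowest and the one around it highest, with 2.10 (1.83 to 2.41) between them and -1.14 (-1.48 to -0.84) away versus day 4 morning.

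Bcl2, the founding guard of the family, was scarce around the embryo, with 191, 138, 227, 184 and 34 counts. That was -2.26 (-2.89 to -1.79) from the layer away from the embryo and -1.90 (-2.55 to -1.41) from day 4 morning, while the other 3 libraries lay within 2-fold of day 4 morning. Birc2 (cIAP1), a ubiquitin ligase of the tumour necrosis factor receptor complex, had 1308, 1642, 1435, 663 and 207 counts. It was lower away than on day 4 morning, at -1.36 (-1.50 to -1.23), and lower again around the embryo, at -2.92 (-3.14 to -2.72). Its neighbour and near relative Birc3 (cIAP2), 13445 bases away on chromosome 9, ranged only from 369 to 638 counts, and Xiap, an inhibitor of caspases, from 1365 to 1988, both within 2-fold in all 5 comparisons. Cflar (c-FLIP), the decoy of Casp8, had 702, 1133, 860, 923 and 2194 counts, or 1.36 (1.25 to 1.48) around versus away. Against day 4 morning it passed narrowly, at 1.01 (0.91 to 1.12), and was 0.86 or 0.98 when libraries were scaled by totals without or with the 2 features Rn45s and Lars2.

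Levels can be compared between genes only per length, as CPM per kilobase of gene length (RPKM). On that scale Bcl2l1 and Mcl1 made up 95.4% to 98.8% of the summed level of the guards Bcl2, Bcl2l1, Bcl2l2 and Mcl1 in each library, so the low Bcl2 count weighed little on the sum. The 4 guards summed to 125, 178, 136 and 258 RPKM from day 3 to day 5 away and to 429 RPKM around the embryo. The BH3-only genes with Bcl2l14 summed to 142, 146, 126 and 121 RPKM in those 4 libraries and to 360 RPKM around, but without Pmaip1 the last value was 69.0 RPKM, the lowest of the 5, against 97.5 to 127 RPKM. Pmaip1 supplied 80.9% of that sum around the embryo and 12.8% to 31.2% elsewhere. Its 291 RPKM made it the highest of all 38 genes around the embryo, next to 276 RPKM for Bcl2l1, whereas away from the embryo the values were 22.7 and 161 RPKM. The ratio of the BH3 sum to the guard sum was 1.13, 0.82, 0.93, 0.47 and 0.84 in the order of libraries.

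**Figure D3:**
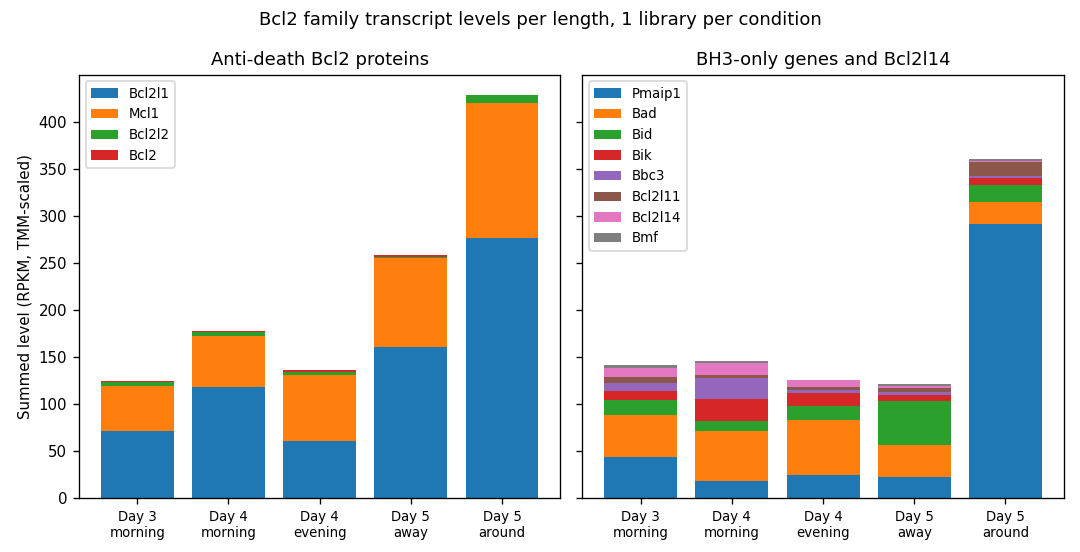
Summed RPKM of the 4 guards (left) and of the BH3-only genes with Bcl2l14 (right) in each of the 5 libraries, stacked by gene, with 1 library per bar and no error shown. The guard sum reaches 429 RPKM around the embryo, nearly all from Bcl2l1 and Mcl1, and the BH3 sum reaches 360 RPKM there, of which 80.9% is Pmaip1.

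The pore formers varied less. Bax ranged from 967 to 1549 counts and was within 2-fold in all 5 comparisons, with 103.5 RPKM around the embryo and 79.2 RPKM away. Bak1, with 237, 118, 94, 161 and 190 counts, passed 2-fold only between day 4 morning and day 3, at -1.04 (-1.39 to -0.73). Bok, a more distant relative, had 439, 445, 388, 932 and 703 counts and was 1.01 (0.85 to 1.18) higher away than on day 4 morning.

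In the apoptosome group, Cycs, which encodes cytochrome c, was low on day 4 morning. Its counts of 1881, 809, 1533, 1992 and 2365 placed day 4 morning below day 3 by a log2 difference of -1.26, and day 4 evening, day 5 away and day 5 around above day 4 morning by 1.10, 1.24 and 1.61. Apaf1, the scaffold, had 127, 100, 89, 153 and 269 counts and was 1.47 (1.15 to 1.83) higher around than on day 4 morning. Casp9, the initiator caspase it recruits, ranged from 278 counts around to 582 away and was close to the threshold between them, at -0.95 (-1.16 to -0.74). Diablo (Smac), which frees caspases from Xiap, ranged from 1220 to 1709 counts and stayed within 2-fold, and 28.5% of its length overlaps B3gnt4, which itself had at most 6 counts.

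Death receptor genes went separate ways. Tnfrsf1a, the main receptor for tumour necrosis factor, had 398, 531, 645, 1210 and 1687 counts, with 1.13 (0.99 to 1.28) away and 1.72 (1.59 to 1.87) around versus day 4 morning. Tnfrsf10b, the mouse Trail receptor, was lower in both, with 697, 692, 408, 249 and 257 counts and differences of -1.52 and -1.36. Fas was scarce, with 10, 14, 68, 29 and 19 counts, and its only difference past 2-fold was day 4 evening over that morning, at 2.30 (1.62 to 3.41). Casp8, the initiator caspase of this pathway, had 1874, 2279, 1238, 880 and 2271 counts. It was lowest away from the embryo, -1.43 (-1.54 to -1.31) from day 4 morning, and around the embryo it was 1.48 (1.37 to 1.60) above the away level and 0.06 from day 4 morning. Casp8 and Cflar lie 36491 bases apart on chromosome 1, and the ratio of their RPKM was 7.51, 5.66, 4.05, 2.68 and 2.91 from day 3 to day 5 around. The adaptors Fadd, at 212 to 319 counts, and Ripk1, at 593 to 899 counts, stayed within 2-fold throughout.

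Ripk3, the kinase that starts necroptosis, had 145 counts on day 3, then 52 in the morning and 46 in the evening of day 4, and 254 away from and 1869 around the embryo on day 5. Both day 5 libraries were above day 4 morning, by 2.19 (1.80 to 2.69) away and 5.17 (4.83 to 5.65) around, and around exceeded away by 2.98 (2.80 to 3.19). Mlkl, the pore-forming substrate of Ripk3, did not reach similar counts: it had 128, 26, 19, 47 and 65, highest on day 3, with -2.26 (-3.02 to -1.73) on day 4 morning versus day 3 and 1.32 (0.71 to 2.10) around versus day 4 morning. The interval of that last value and the 0.56 (0.02 to 1.16) around versus away show the low depth behind Mlkl. The ratio of Ripk3 to Mlkl RPKM was 0.98, 1.73, 2.10, 4.68 and 24.9 in the order of libraries.

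The inflammatory caspases were lower around the embryo than away from it. Casp1, which matures interleukin 1, had 822, 1157, 1034, 898 and 256 counts, or -1.69 (-1.90 to -1.49) around versus away and -2.11 (-2.32 to -1.92) around versus day 4 morning. Casp4 (caspase 11 of the mouse), a sensor of bacterial lipopolysaccharide, had 529, 721, 1093, 526 and 170 counts, or -1.50 (-1.77 to -1.26) and -2.01 (-2.27 to -1.78). Casp12, a caspase of the endoplasmic reticulum, had 483, 298, 388, 937 and 202 counts. It peaked away from the embryo, 1.59 (1.41 to 1.79) above day 4 morning, and was -2.09 (-2.33 to -1.88) around versus away. Around versus day 4 morning it was -0.50 (-0.77 to -0.24), within 2-fold, so its difference from away went with a high level there. These 3 genes are neighbours on chromosome 9 of GRCm38, Casp1 at 5298517 to 5307281, Casp4 at 5308860 to 5336791 and Casp12 at 5345476 to 5373034, all on the plus strand, and they are related in sequence, so reads that match more than 1 of them are uncertain. Immune cells also express Casp1 and Casp4, and 8 of 11 immune markers were lower and 3 higher in the same comparison, as given above. Gsdmd, the pore former of pyroptosis, had 86, 40, 47, 80 and 40 counts and passed 2-fold only between day 4 morning and day 3, at -1.11 (-1.73 to -0.60). The other caspases Casp2, at 598 to 1104 counts, and Casp6, at 1163 to 1483 counts, were within 2-fold in all 5 comparisons.

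The 250 bases before the start are shown for Ripk3, which had the widest difference from day 4 morning among these genes, and for Tnfrsf1a and Casp12, whose windows hold the motif TTCNNNGAA, the palindrome bound by Stat factors that act downstream of Lif. Capitals mark this motif or the GC box GGGCGG, each searched on both strands, and each window reads 5′ to 3′ on the strand of its gene. The windows are RefSeq sequence of GRCm38.p6, at chr14:55788858-55789107 on the minus strand for Ripk3, chr6:125349473-125349722 on the plus strand for Tnfrsf1a and chr9:5345226-5345475 on the plus strand for Casp12.
Ripk3: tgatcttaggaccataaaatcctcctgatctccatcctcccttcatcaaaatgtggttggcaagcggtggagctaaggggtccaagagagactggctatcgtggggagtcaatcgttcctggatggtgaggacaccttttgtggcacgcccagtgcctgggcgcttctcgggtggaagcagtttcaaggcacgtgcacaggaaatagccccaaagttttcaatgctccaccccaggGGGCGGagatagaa
Tnfrsf1a: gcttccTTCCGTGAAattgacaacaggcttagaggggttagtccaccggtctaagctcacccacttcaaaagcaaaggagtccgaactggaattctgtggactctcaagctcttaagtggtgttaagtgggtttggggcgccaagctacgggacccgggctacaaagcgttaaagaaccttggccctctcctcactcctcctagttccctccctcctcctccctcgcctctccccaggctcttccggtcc
Casp12: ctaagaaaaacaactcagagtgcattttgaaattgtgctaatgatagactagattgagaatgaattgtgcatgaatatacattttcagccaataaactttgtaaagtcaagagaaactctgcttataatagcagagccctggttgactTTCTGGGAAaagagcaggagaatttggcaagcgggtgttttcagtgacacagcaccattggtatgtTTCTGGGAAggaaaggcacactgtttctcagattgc
The motif begins 244 bases before the start of Tnfrsf1a, as TTCCGTGAA, and 102 and 36 bases before that of Casp12, as TTCTGGGAA in both places. RefSeq windows were at hand for 34 of the 38 genes, and 4 of them (11.8%) held TTCNNNGAA, namely Casp12, Fas, Ripk1 and Tnfrsf1a, against 8.13% of 27025 genes. The GC box was in 21 of the 34 (61.8%), Ripk3 among them, against 35.4% of the 27025, and TATAAA in 2 (5.88%), Cflar and Xiap, against 14.3%. The 27025 are all genes with a RefSeq window, expressed here or not. A gene counted if any of its windows matched, and there were 48 windows for the 34 genes and 32851 for the 27025. A match describes the letters only, and of the 4 genes with the Stat motif, Tnfrsf1a was highest around the embryo, Casp12 away from it and Fas on day 4 evening. Ripk1 stayed within 2-fold throughout, with 52.2 CPM around the embryo and 50.1 CPM on day 4 evening.

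Read as time courses from day 4 morning, the comparisons share that library, and their values are set side by side. Around the embryo, 10 of the 37 genes (27.0%) were higher than on day 4 morning, against 20.7% of all genes, and 10 (27.0%) lower, against 22.6%, with medians of 0.09 and -0.03. Away from the embryo, 6 (16.2%) were higher, against 15.0%, and 8 (21.6%) lower, against 14.3%, with medians of -0.01 and 0.00. By day 4 evening only 4 genes had passed, 2 higher (5.41%; 7.20% of all genes), Fas and Cycs, and 2 lower (5.41%; 6.94% of all genes), Bbc3 and Bmf. From day 3 to day 4 morning, 2 were higher (5.41%, against 7.41%), Bbc3 and Bik, and 7 lower (18.9%, against 11.5%), namely Mlkl, Bcl2l11, Ripk3, Cycs, Pmaip1, Gsdmd and Bak1. Over the 5 comparisons, 28 of the 37 genes (75.7%) passed 2-fold at least once, against 57.4% of all genes, and 9 never did: Birc3, Xiap, Bax, Casp9, Diablo, Casp2, Casp6, Fadd and Ripk1.

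**Figure D4:**
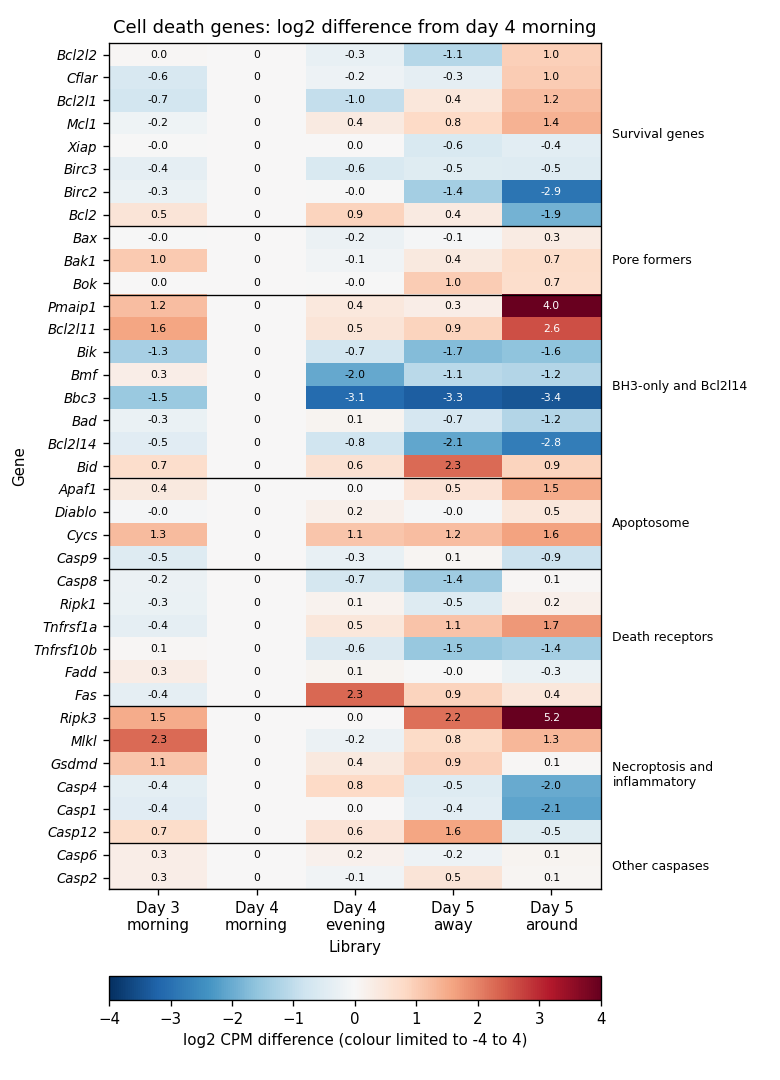
Log2 CPM difference from day 4 morning for 37 cell death genes (rows, by role) in the 5 libraries (columns), with the value printed in each cell and colour limited to -4 to 4. Ripk3 at 5.2 and Pmaip1 at 4.0 stand out in the column around the embryo, and Bbc3 is at -3.1, -3.3 and -3.4 in the 3 later libraries.

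**Figure D5:**
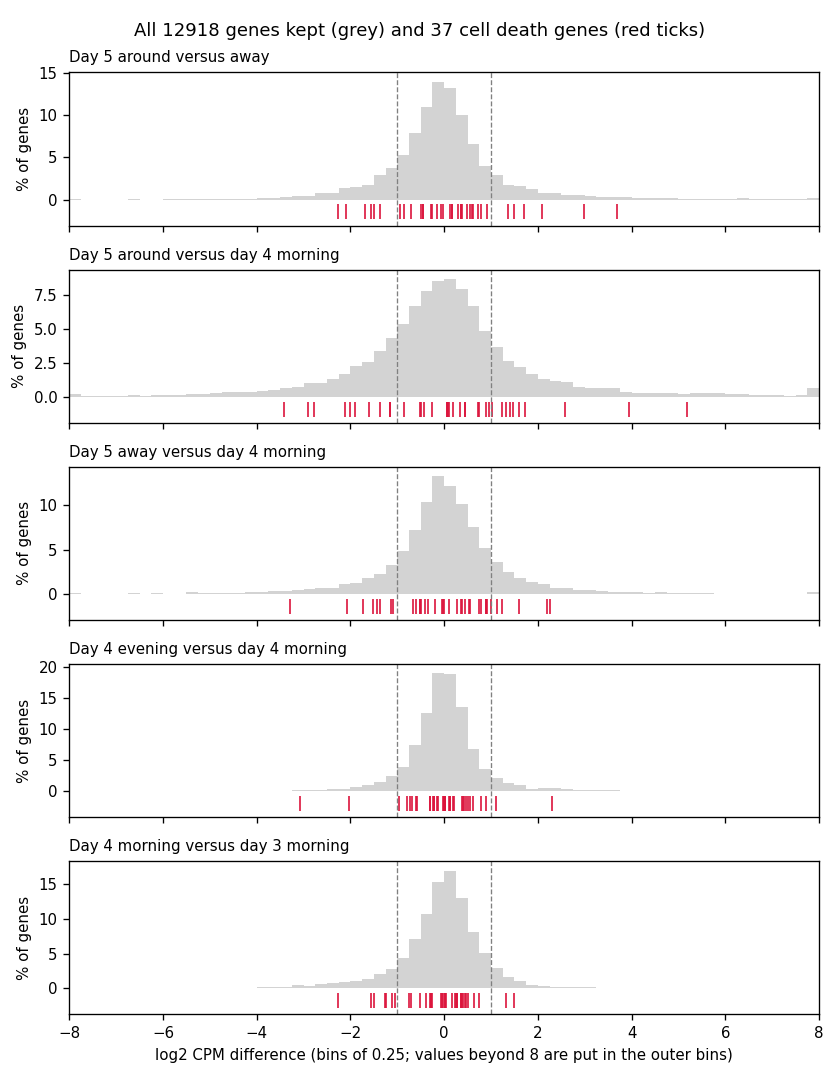
Distribution of log2 CPM differences over all 12918 genes (grey, % of genes per bin of 0.25) and the 37 cell death genes (red ticks) in each of 5 comparisons, with dashed lines at 2-fold and values beyond 8 placed in the outer bins. The ticks spread over the grey curve on both sides, and Pmaip1 and Ripk3 are the rightmost ticks in the top pair of panels, inside the range of all genes.

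Other genes of the same pathways were read from lists beside the set, each set against the 13.3% of all genes that were higher and the 15.0% that were lower around than away. For the rest of the death machinery, 5 of 32 genes (15.6%) were higher and 2 (6.25%) lower, with a median of -0.06. The mitophagy receptors Bnip3, with 4455 counts away and 23973 around, and Bnip3l differed by 2.54 and 1.18, and Naip1, which has near-identical copies and is therefore uncertain, by 3.73. Naip1 was also at -3.71 away versus day 4 morning, so its difference went with a low level away from the embryo. Pdcd4, an inhibitor of translation, was at -1.69.

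Of 30 death ligands, receptors and adaptors, 7 (23.3%, against 13.3% of all genes) were higher and 3 (10%, against 15.0%) lower around than away, with a median of 0.10. Tnfrsf12a, the Tweak receptor, had 455, 25, 178, 400 and 4792 counts over the 5 libraries and differed by 3.69, Tnfrsf11b (osteoprotegerin), a decoy receptor, by 3.09, and Tnfrsf1b by 1.54. Tnfsf10 (Trail), the ligand of Tnfrsf10b, was lower by a log2 difference of -3.36, with 520 counts away and 45 around, followed by Ikbke at -1.70 and Tnfaip8 at -1.58.

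Among 14 inflammasome and pyroptosis genes, 1 (7.14%, against 13.3% of all genes) was higher and 4 (28.6%, against 15.0%) lower, while the median was 0.11. Zbp1, a nucleic acid sensor upstream of Ripk3, differed by 1.52 between around and away, with 222 and 591 counts, although its highest count, 849, was on day 4 evening. Pycard, the adaptor that joins sensors to Casp1, had 4091 counts away and 382 around, a log2 difference of -3.30, in the same direction as Casp1. Tlr3 was at -1.01. Gsdmc2, also among the 4 counted as lower, had 6 counts away and 0 around, too few for a fold.

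Of 23 genes of the p53 list, 7 (30.4%, against 13.3% of all genes) were higher and 4 (17.4%, against 15.0%) lower around than away, with a median of 0.31. The cell cycle inhibitor Cdkn1a (p21) had 329, 52, 67, 151 and 3498 counts and differed by 4.63, Phlda3 by 2.98 and Plk2 by 2.56, while Sesn1, Trp53inp1 and Rrm2b were at -1.50, -1.50 and -1.15. Against day 4 morning, Cdkn1a was at 6.08 around the embryo. Plk2 was at -3.24 away versus day 4 morning, so its difference went with a low level away from the embryo. Trp53 itself was at -0.62, within 2-fold. Pmaip1 and Bbc3, both known p53 targets, stood at 3.68 and -0.14 in this comparison.

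For 17 stress-linked death regulators, 6 (35.3%, against 13.3% of all genes) were higher and 1 (5.88%, against 15.0%) lower around the embryo than away from it, with a median of 0.56. Egr1, an immediate early gene, differed by 4.17, Ero1a, an oxidase of the endoplasmic reticulum, by 2.35 and Chac1, a glutathione-degrading enzyme, by 2.33, and the thioredoxin inhibitor Txnip was at -3.08 with 3893 counts away and 423 around. In the list for clearance of dying cells, 6 of 26 (23.1%, against 13.3% of all genes) were higher and 5 (19.2%, against 15.0%) lower, with a median of 0.20. Itgav, a subunit of the integrins that bridge to dying cells, differed by 2.47, the channel Panx1 by 1.95 and calreticulin (Calr) by 1.07, whereas Itgb5 at -1.96, the bridging ligand Gas6 at -1.73 and the adaptor Gulp1 at -1.55 were lower.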

How the data were processed

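Wild-type luminal layers were obtained by laser microdissection. The study's methods name a SMART-seq v.4 kit for RNA of its microdissected samples and blastocysts. Per the labels and the study's methods, reads were aligned with HISAT2 to GRCm38/mm10 and counted with featureCounts of Subread 2.0.0. For each of 23420 genes the authors deposited the raw, unscaled count and a gene length in bases. The annotation, strand setting and treatment of multiply aligned reads were not given in the sources used here. The methods describe pooled RNA for the study's Lif groups and do not say whether the wild-type libraries were pooled.

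Counts were scaled by TMM in edgeR 4.0.16 (R 4.3.3), a prior count of 2 was added for log2 CPM, and a mean of 1 CPM or more was required, which kept 12918 genes. A call meant a log2 difference beyond 1. RPKM used the deposited length and the TMM library size. Intervals of single-gene differences were exact Clopper-Pearson (scipy 1.17.1). Tables and plots were made with Python 3.11.15, pandas 2.3.3, numpy 2.4.6 and matplotlib 3.10.9. Alternatives were DESeq2 1.42.0 size factors, library totals with and without Rn45s and Lars2, other filters (none, or a mean CPM of at least 5), a prior count of 0.5, and the edgeR exact test at assumed dispersions of 0.1 and 0.4.

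The genes, lists and tests were chosen with earlier results of these data known. All genes past 2-fold in any comparison were named with their counts in the 5 libraries, the others by range. From each further list, up to 3 genes in each direction with a mean CPM of at least 5 were named, for the comparison of the day 5 libraries. Total counts of 15334674 to 19529491 put the floor of 3 counts at 0.161 to 0.190 CPM.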

Additional observations from a re-analysis of the deposited data

How the results depend on the processing

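No paired analysis was possible because each condition had 1 library, and none could be left out. Of 350 recomputed values of single genes, 345 stayed past 2-fold, 0 changed sign and 5 came within 2-fold under library totals, with or without Rn45s and Lars2. These were Cflar around versus day 4 morning (0.98 and 0.86), Bmf away versus day 4 morning (-0.82 and -0.96) and Bcl2l2 away versus day 4 morning (-0.87). The 350 include values under the other filters, which changed only which genes were kept, so those values could not move. The other scalings shifted the median of all genes by -0.31 to 0.28, too little to turn the sign of a value past 1. These numbers are therefore no measure of how well the differences would repeat. Of 110 recomputed counts and medians, 23 moved, meaning a count by over 1.5 times or a median out of its first 95% interval. The interval of a median came from the ranks of the 37 genes, so it covers the spread between genes and not between libraries. Among the other 87, around versus away, the lower genes went from 6 to 9 under library totals and 8 without Rn45s and Lars2, and the median from 0.16 to -0.15 and -0.12. Library totals also gave 11 genes higher away versus day 4 morning and a median of -0.28 for day 4 morning versus day 3, and a mean CPM of at least 5 left 1 higher gene on day 4 evening.

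Library totals shifted the median of all genes by -0.31 around versus away, where 1288 genes were higher and 2807 lower instead of 1715 and 1943. The shift was 0.28 away versus day 4 morning (2690 and 1399 instead of 1932 and 1846) and -0.29 for day 4 morning versus day 3 (538 and 2209 instead of 957 and 1490). Without Rn45s and Lars2 these 3 shifts were -0.28, 0.13 and -0.14, and around versus day 4 morning it was -0.15.

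The edgeR exact test, at a false discovery rate of 0.05 and an assumed dispersion of 0.1, called 3 of the 37 genes higher and 2 lower around versus away (6.06% and 4.72% of all genes), 4 and 6 around versus day 4 morning (12.2% and 12.1%), 2 and 2 away versus day 4 morning (5.81% and 5.84%), 0 and 1 on day 4 evening (1.22% and 0.619%), and 0 and 0 between day 4 morning and day 3 (0.704% and 3.03%). At a dispersion of 0.4 it called 1 gene, Ripk3, higher around versus day 4 morning (2.86% of all genes), and 0 in every other case (at most 1.63%). The true dispersion cannot be estimated from these libraries, so the calls depend on the value assumed. Depth limited Fas, Mlkl and Gsdmd, whose counts were at most 128 in every library.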
